A study of Mus musculus with 6 samples.

Results

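The 120 genes described here encode the enzymes that build and sulfate glycans, the sugar chains of glycoproteins, glycolipids and proteoglycans. They are the rows of the deposited expression table, 120 of 43383, whose gene symbol belongs to the families of glycosyltransferases or glycan sulfotransferases named here (Chst, Hs2st, Hs3st, Hs6st, Ndst, B3galt, B4galt, B3gnt, Ext, Extl, Galnt, Csgalnact, Chsy, Chpf, Xylt, Fut, Mgat, St3gal, St6gal, St6galnac, St8sia, Has and Ogt). Choice by symbol used no expression value, and the members were sorted into 13 groups by the step that each enzyme carries out. RNA-seq had been performed on astrocytes sorted by flow cytometry of the somatosensory cortex, either from its upper layers (II–IV, called ULAs) or from its deep layers (V–VI, called DLAs). No treatment is named, and both groups came from 4-week-old male mice of the genotype Aldh1l1-eGFP, in which the Aldh1l1 promoter drives green fluorescent protein in astrocytes. Each of 3 brains gave 1 ULA and 1 DLA library, so that the layers were compared within a brain, and tissue of layer I, of the border between layers IV and V and of the corpus callosum had been discarded. The question was which genes distinguish the astrocytes of these layers.

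Glycans are built without a template, so that their structure depends on which enzymes a cell makes. Proteoglycans, to which astrocytes contribute in the cortex, carry heparan sulfate or chondroitin sulfate on a shared linker of xylose, galactose and glucuronic acid. Sulfotransferases then place sulfate at particular positions of the chain, and these positions set which growth factors, guidance molecules and receptors the chain binds. Sialyltransferases cap the chains of glycoproteins and of gangliosides, the sialic acid-bearing glycolipids that are abundant in brain.

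Levels are in RPKM, a read count scaled by mRNA length and by the size of the library, so that levels can be compared between genes. The depth of the ULA libraries was 24.5 to 26.7 M reads and that of the DLA libraries 19.7 to 29.6 M, estimated from the spacing of low RPKM values. Astrocyte markers summed to between 9422 and 11038 RPKM in every library. Of the 8 tested, 1 differed, Gfap, which was higher in DLAs (11.7 RPKM in ULAs against 23.5 RPKM, limma adjusted p = 0.00556). General neuronal markers summed to at most 7.84 RPKM. Oligodendrocyte markers summed to 87.0 to 177 RPKM in ULAs and 176 to 274 RPKM in DLAs, and 5 of the 7 tested were higher in DLAs. Blood genes summed to 0.94 to 1.79 RPKM in ULAs and 15.4 to 76.7 RPKM in DLAs. Microglial markers summed to 12.9 to 13.8 RPKM in ULAs and 8.58 to 11.7 RPKM in DLAs. Fibroblast markers summed to 3.11 to 4.1 RPKM in ULAs and 4.98 to 6.29 RPKM in DLAs. No tested marker of these lists differed at the threshold. Endothelial markers summed to at most 2.09 RPKM. Mural cell markers summed to 15.1 to 21.9 RPKM in ULAs and 11.2 to 17.9 RPKM in DLAs. Of these, Rgs5 was higher in ULAs (2.25 against 0.897 RPKM, limma adjusted p = 0.0455). Markers of deep-layer neurons summed to 3.96 to 9.57 RPKM, nearly all from Fezf2, and Bcl11b among them was listed at 0 in every library. Markers of upper-layer neurons summed to 86.6 to 130 RPKM, mostly from Rorb and Cux1, and none of those tested differed between layers at the threshold. The part of these other cells in the results was not tested. In such bulk libraries, fewer cells of a type and less RNA per cell cannot be told apart.

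Of the 120 members, 71 had a mean of at least 1 RPKM over the 6 libraries and were tested. The other 49 were below 1 RPKM, and 6 of them (Chst4, Chst5, Chst13, Fut1, Fut4 and St8sia4) were listed at 0 in every library. A few members made up most of the total: 4 had a mean of at least 100 RPKM, 31 had 10 to 100 RPKM and 36 had 1 to 10 RPKM. The 5 most abundant held 42.0% of the summed RPKM of all members, and the 12 most abundant held 63.3%. These were the sialyltransferases St6galnac5 and St3gal4, the B3gnt1 enzyme (named B4gat1 in RefSeq, which primes the laminin-binding glycan of dystroglycan), the keratan sulfate sulfotransferase Chst1, and Fut8, Ogt, Csgalnact1, Chst10, Ext2, Chpf, B4galt7 and Mgat2. Within most role groups the levels spanned several orders of magnitude, so that 1 or a few members set the level of the group.

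**Figure D1:**
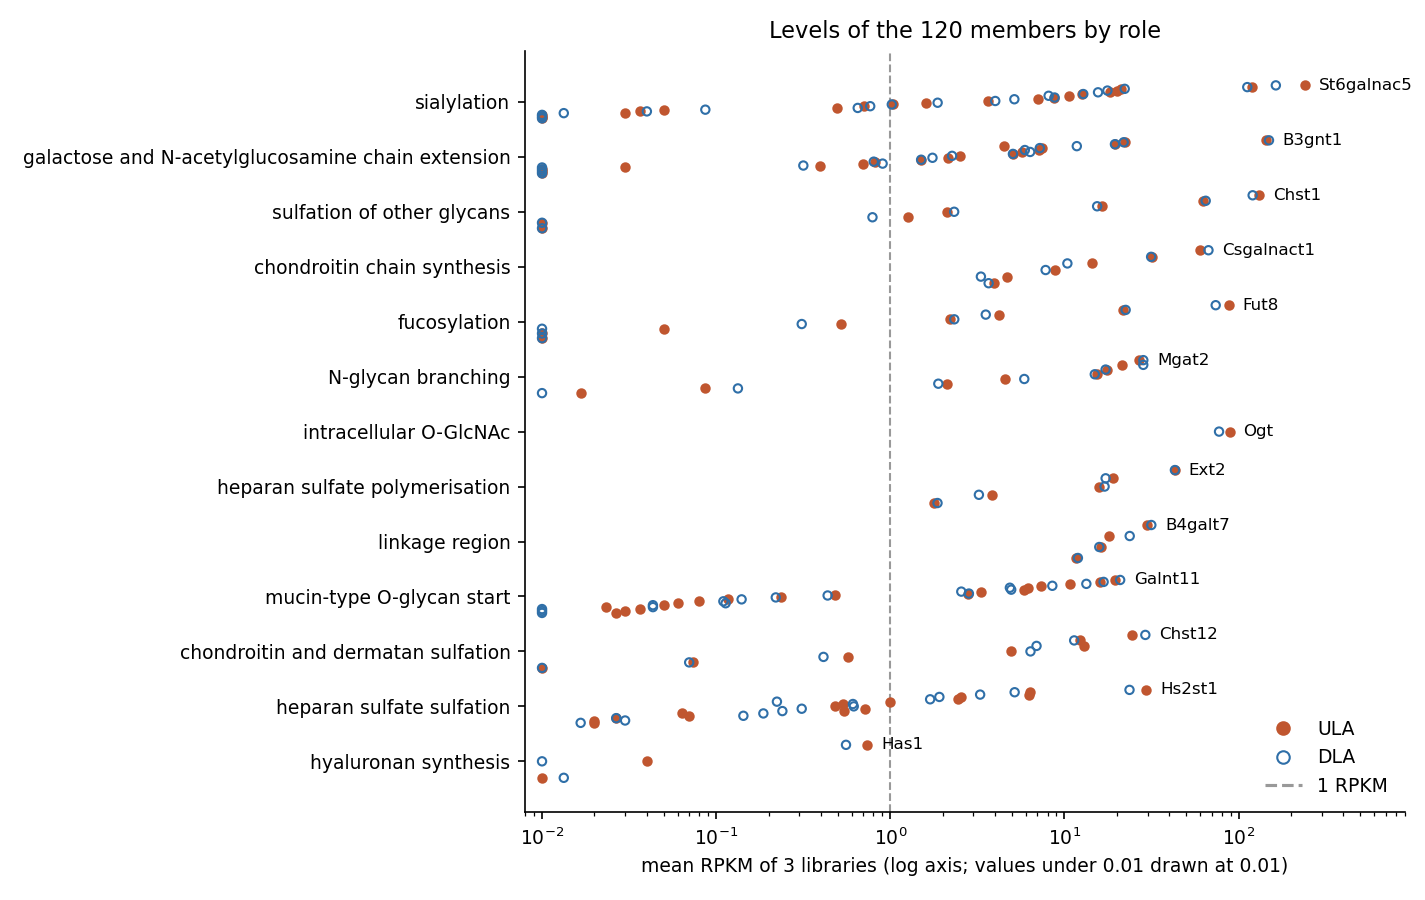
Mean RPKM of each of the 120 members on a log axis, grouped by role, with filled points for ULAs, open points for DLAs (3 libraries each) and the most abundant member of each group named. St6galnac5 has the highest level, 49 members lie below a mean of 1 RPKM, and filled and open points lie close together for most members.

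Most members were at similar levels in the layers, and 4 of the 71 tested (5.63%) passed at an adjusted p under 0.05 (limma with brain as a block), where 1.63% of all 13999 rows tested did. Of these, 3 enzymes were higher in ULAs, the heparan sulfate 3-O-sulfotransferase Hs3st1, the chondroitin 6-O-sulfotransferase Chst7 and the ganglioside sialyltransferase St6galnac5. The galactosyltransferase B3galt2 was higher in DLAs. Without the block for brain, B3galt2 passed and the other 3 did not (adjusted p = 0.0856 for Chst7, 0.318 for St6galnac5 and 0.328 for Hs3st1). Of all rows tested, 0.714% passed as higher in ULAs and 0.914% as higher in DLAs. At an unadjusted p under 0.05, 13 members (18.3%) passed, 10 higher in ULAs and 3 higher in DLAs, against 16.4% of all rows, among which 5.64% were higher in ULAs and 10.8% higher in DLAs. That split was not stable, at 6 higher in ULAs and 7 higher in DLAs with a length correction and 5 in each direction without brain 2. The log2 fold change (ULA minus DLA, on log2(RPKM + 1), as throughout) was within 0.5 of 0 for 67 of the 71 members (94.4%) and for 95.9% of all rows tested. Its median was 0.05 over the members and -0.03 over all rows.

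Within brains, RPKM was higher in ULAs than in DLAs in all 3 brains for 21 members (29.6%), against 15.2% of all rows, and higher in DLAs in all 3 brains for 11 members (15.5%), against 23.2% of all rows. The ULA and DLA values did not overlap, with ULAs higher, for 11 members (15.5%), against 6.59% of all rows, and with DLAs higher for 2 (2.82%), against 9.27%. The summed RPKM of all 120 members was 1752, 1645 and 1586 for ULAs of brains 1, 2 and 3 and 1590, 1525 and 1528 for DLAs. Each brain had the higher sum in its ULAs, although ULA brain 3 lay just below DLA brain 1, so that the groups overlapped.

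**Figure D2:**
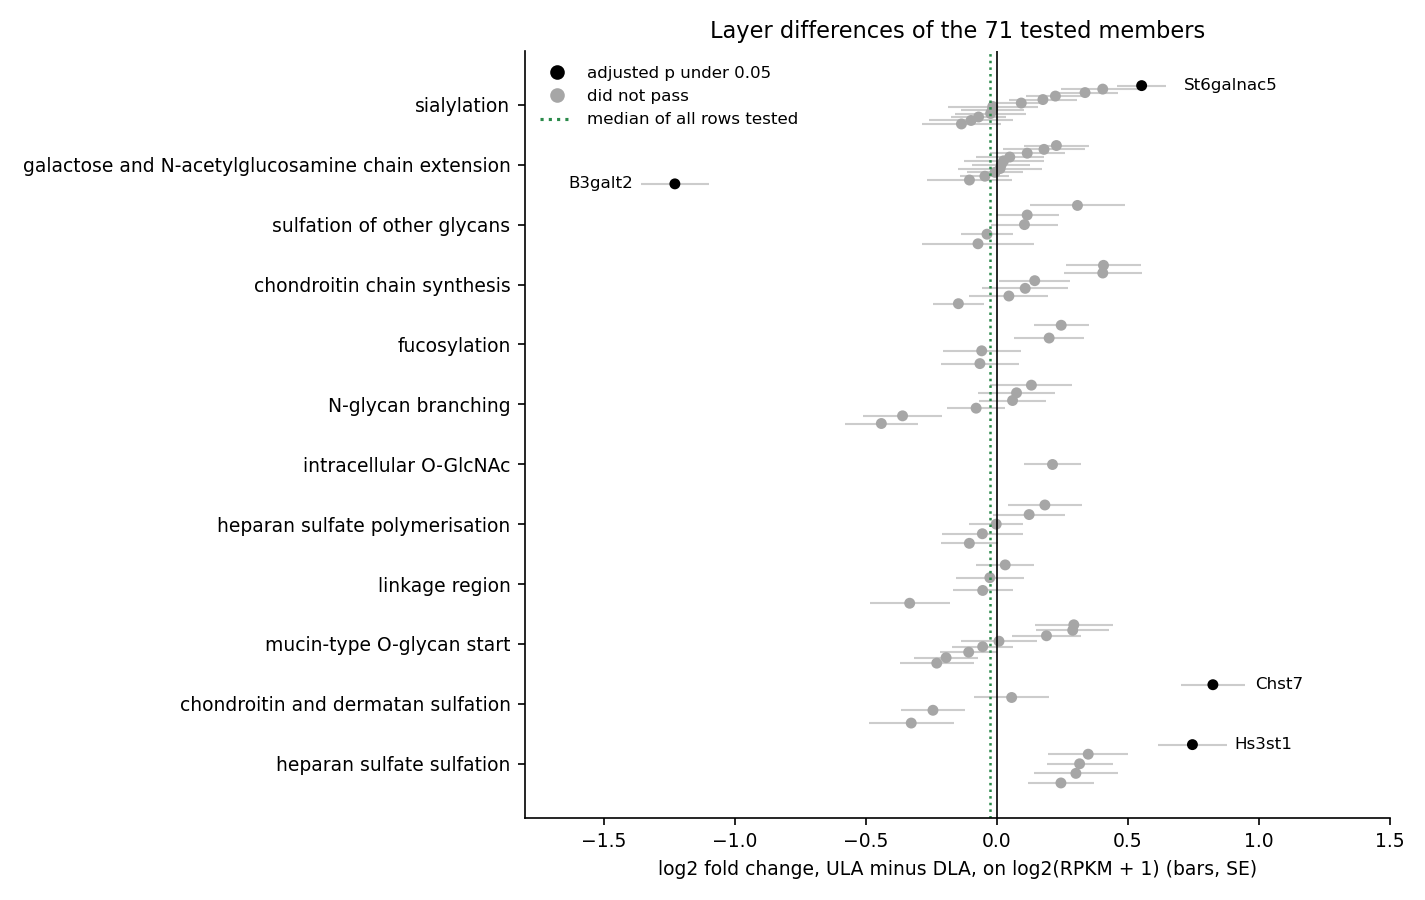
Log2 fold change (ULA minus DLA, on log2(RPKM + 1)) of each of the 71 tested members with its SE, by role group, with black points for members at an adjusted p under 0.05 and a dotted line at the median of all rows tested. The points past the threshold are Hs3st1, Chst7 and St6galnac5 on the ULA side and B3galt2 at -1.23 on the DLA side, while all 5 tested heparan sulfate sulfation enzymes lie above 0.

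The promoters of the members that passed are shown because these genes differed between the layers. RefSeq promoter entries on the build GRCm38.p6 were found for 3 of the 4, and St6galnac5 had no entry. The 250 bases before the start site are given 5′ to 3′ on the strand of the gene, with CG dinucleotides in capitals: Chst7 at chrX:20059320-20059569 on the plus strand, Hs3st1 at chr5:39644632-39644881 on the minus strand and B3galt2 at chr1:143640447-143640696 on the plus strand.
Chst7: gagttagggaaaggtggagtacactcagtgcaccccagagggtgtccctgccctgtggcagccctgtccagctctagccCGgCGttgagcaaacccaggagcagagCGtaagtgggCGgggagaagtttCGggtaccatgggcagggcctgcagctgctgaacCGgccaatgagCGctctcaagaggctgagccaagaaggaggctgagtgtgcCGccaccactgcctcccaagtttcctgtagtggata
Hs3st1: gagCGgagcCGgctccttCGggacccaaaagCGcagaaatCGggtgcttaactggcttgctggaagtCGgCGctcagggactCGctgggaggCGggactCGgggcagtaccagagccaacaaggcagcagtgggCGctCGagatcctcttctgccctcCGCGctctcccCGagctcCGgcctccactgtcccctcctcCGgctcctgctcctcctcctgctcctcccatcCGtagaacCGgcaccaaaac
B3galt2: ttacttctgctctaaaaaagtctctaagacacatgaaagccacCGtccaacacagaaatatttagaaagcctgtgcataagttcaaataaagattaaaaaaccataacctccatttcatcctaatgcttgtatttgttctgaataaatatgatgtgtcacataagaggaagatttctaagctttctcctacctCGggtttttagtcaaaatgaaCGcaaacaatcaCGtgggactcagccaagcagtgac
The CG dinucleotide, the site of DNA methylation in mammals, occurred 19 times before Hs3st1, 8 times before Chst7 and 4 times before B3galt2. The median over 32851 promoter entries was 6, and 19.7%, 43.0% and 62.2% of entries held at least as many as Hs3st1, Chst7 and B3galt2. These counts describe the letters of the windows only, since neither methylation nor factor binding was measured here.

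Chondroitin and dermatan sulfate are sulfated by 7 members, of which 4 were tested. Chst7 places sulfate at the 6 position of N-acetylgalactosamine in chondroitin chains. Its level was 14.60, 13.31 and 11.15 RPKM in ULAs (brains 1, 2 and 3, the order used throughout) and 7.07, 7.80 and 5.87 RPKM in DLAs. Every ULA value lay above every DLA value, and the ratio of ULAs to DLAs was 1.89 ± 0.18 (mean ± SD, n = 3 brains). Chst7 passed, with a log2 fold change of 0.82 (SE 0.12, limma adjusted p = 0.00908), and rested on 337 to 784 reads per library. It lies at chrX:19636696-19674646 on the plus strand (mm9) in 2 exons. The other chondroitin 6-O-sulfotransferase, Chst3, did not exceed 0.17 RPKM in any library, so that Chst7 was the one measured above 1 RPKM in these cells.

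The 4-O-sulfotransferases, which sulfate the same sugar at its 4 position, did not pass. Chst12 was at 25.66, 21.50 and 26.35 RPKM in ULAs and 29.57, 31.32 and 26.55 RPKM in DLAs. All DLA values were above all ULA values, though by a narrow margin, and the log2 fold change was -0.24 (adjusted p = 0.357). Chst11 was at 12.2 ± 3.62 RPKM in ULAs and 11.4 ± 0.705 RPKM in DLAs (mean ± SD, n = 3), and its groups overlapped. The level of Chst7 was 0.38, 0.36 and 0.32 times the summed level of Chst11 and Chst12 in ULAs and 0.17, 0.18 and 0.16 times that sum in DLAs. This ratio was computed after the values of the genes had been seen, and it is given without a test. Chst14, which sulfates dermatan sulfate at the 4 position, gave a log2 fold change of -0.33 (adjusted p = 0.349). Without brain 2 both Chst12 and Chst14 were at -0.10. The group as a whole had a median log2 fold change of -0.09.

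**Figure D3:**
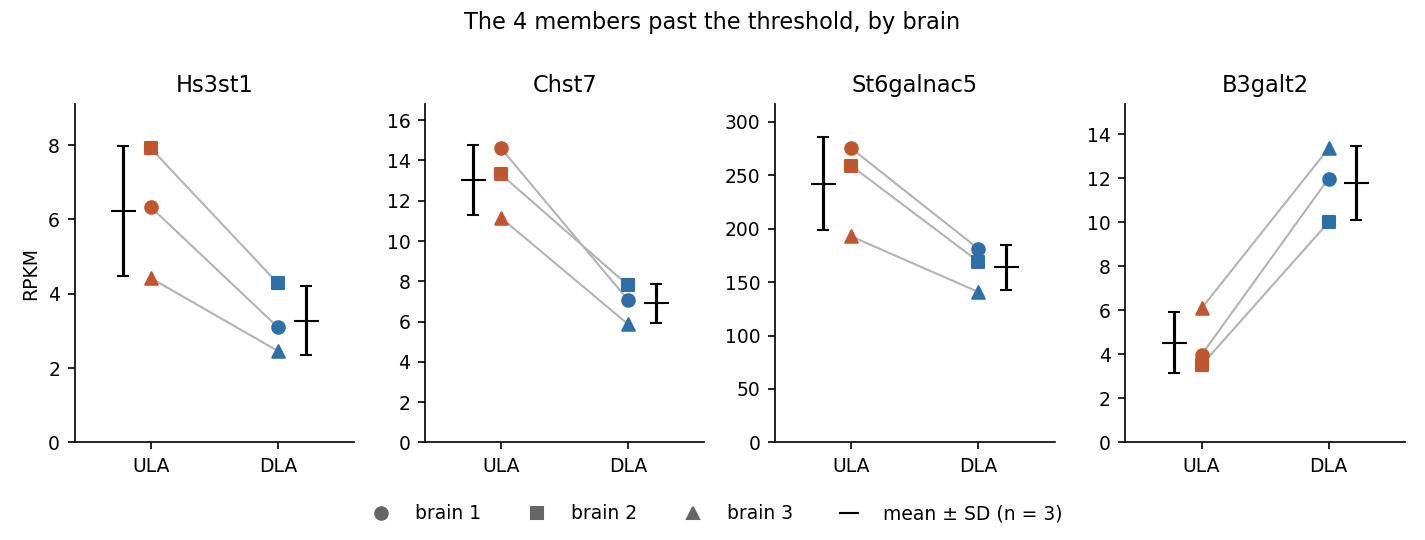
RPKM of the 4 members at an adjusted p under 0.05 in ULAs and DLAs, with 1 symbol for each brain joined by a line, and the mean ± SD of 3 libraries beside the points. In each panel all 3 lines run the same way and the ULA and DLA values do not overlap.

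Heparan sulfate is sulfated by 15 members in 4 families, the N-deacetylase and N-sulfotransferases (Ndst), the 2-O-sulfotransferase Hs2st1, the 6-O-sulfotransferases (Hs6st) and the 3-O-sulfotransferases (Hs3st). Hs3st1, which adds the sulfate that completes the antithrombin-binding site of heparan sulfate, was at 6.33, 7.91 and 4.42 RPKM in ULAs and 3.10, 4.28 and 2.46 RPKM in DLAs. The lowest ULA value exceeded the highest DLA value by little, but within each brain the level was higher in ULAs by 1.9 ± 0.13 times (mean ± SD, n = 3). Hs3st1 passed, with a log2 fold change of 0.75 (SE 0.13, limma adjusted p = 0.0230), on 123 to 341 reads per library. Without brain 1 the change was 0.70 and did not pass (adjusted p = 0.104). The gene lies at chr5:40005174-40035870 on the minus strand (mm9) in 2 exons.

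The other 4 tested enzymes of heparan sulfate sulfation did not pass, and each was higher in ULAs in all 3 brains. Hs2st1, which sulfates the uronic acid and was the most abundant of the group, was at 28.92, 30.82 and 28.62 RPKM in ULAs and 25.75, 19.41 and 25.76 RPKM in DLAs, with a log2 fold change of 0.32 (adjusted p = 0.253) that was 0.15 without brain 2. Hs6st1, which sulfates glucosamine at its 6 position, was at 2.76, 2.60 and 1.97 RPKM in ULAs and 1.58, 1.9 and 1.6 RPKM in DLAs, with a log2 fold change of 0.35 (adjusted p = 0.297). Neither had overlapping groups. Ndst1 and Ndst2, which start the modification by replacing acetyl groups with sulfate, gave log2 fold changes of 0.30 and 0.24 (adjusted p = 0.377 and 0.370), and their groups overlapped. The median of the 5 was 0.32, the highest of any role group with more than 1 tested member, and over the alternatives that tested the same 5 it ranged from 0.21 with a length correction to 0.44 with a pseudocount of 0.1, with all 5 above 0 in each. The summed RPKM of all 15 was 52.1, 51.9 and 47.3 in ULAs and 41.7, 33.3 and 39.4 in DLAs, and Hs2st1 made up 60.0% of it.

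The 10 members of this group below the filter lay on both sides of 0, and 9 of all 15 were above 0 with no filter. Hs3st3a1, another 3-O-sulfotransferase, had a mean of 0.608 RPKM. It was at 1.26, 0.95 and 0.77 RPKM in ULAs and 0.32, 0.07 and 0.28 RPKM in DLAs, on 5 to 121 reads per library. With no filter on low values its log2 fold change was 0.70, with an unadjusted p of 0.00273 and an adjusted p of 0.339 (limma), a fit in which none of 27963 rows passed. Its exons share 1295 bases with the row F930015N05Rik on the opposite strand, so that reads of the pair may not be separable. Its near relative Hs3st3b1 and Hs6st3 gave 0.31 and 0.40 in that fit (adjusted p = 0.474 and 0.431). Hs3st4 gave -0.16 (adjusted p = 0.431), at 0.03 to 0.11 RPKM in ULAs and 0.15 to 0.21 RPKM in DLAs. These 4 were singled out after their values had been seen. The remaining 6 (Hs3st2, Hs3st5, Hs3st6, Hs6st2, Ndst3 and Ndst4) had log2 fold changes between -0.12 and 0.0048 in that fit.

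The steps before sulfation showed no member past the threshold. The shared linker is built by 4 members, xylosyltransferases Xylt1 and Xylt2 and galactosyltransferases B4galt7 and B3galt6. Their median log2 fold change was -0.04. It was 0.02 under quantile normalization, 0.05 without brain 2 and -0.14 without brain 3. Their summed RPKM was 78.0, 76.0 and 73.7 in ULAs and 85.5, 83.3 and 80.3 in DLAs, lower in ULAs in every brain. Xylt1, which with Xylt2 attaches the first xylose, was at 18.75, 17.57 and 17.81 RPKM in ULAs and 25.90, 15.87 and 29.34 RPKM in DLAs. Brain 2 ran against the other two, and the log2 fold change was -0.33 (adjusted p = 0.316). B4galt7 was at 30.0 ± 1.84 RPKM in ULAs and 31.5 ± 6.50 RPKM in DLAs, with a log2 fold change of -0.05 (adjusted p = 0.856).

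The heparan sulfate backbone is polymerised by Ext1 and Ext2, with help from the Extl enzymes. All 5 members were tested, the median log2 fold change was -0.0020, and the summed level was 83.3 ± 1.78 RPKM in ULAs and 82.4 ± 2.19 RPKM in DLAs. Ext2, at 42.9 ± 2.0 and 43.1 ± 4.51 RPKM, was itself the member at that median (adjusted p = 0.994). Whether the sulfation and polymerisation groups differ from each other was not tested.

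Chondroitin chains are polymerised by 6 members, all tested. The most abundant, Csgalnact1, starts the chain and was at 60.3 ± 4.36 RPKM in ULAs and 67.2 ± 9.17 RPKM in DLAs, with a log2 fold change of -0.15 (adjusted p = 0.492). Chpf, a partner of the polymerases, was at 31.9 ± 4.49 and 31.5 ± 8.45 RPKM. The synthases Chsy1 and Chsy3 had ULA values above all DLA values without passing. Chsy1 was at 4.78, 4.52 and 4.74 RPKM in ULAs and 3.38, 2.65 and 3.91 RPKM in DLAs, with a log2 fold change of 0.41 (adjusted p = 0.196). Chsy3 was at 11.48, 19.53 and 12.40 RPKM in ULAs and 10.39, 10.48 and 10.32 RPKM in DLAs, with a log2 fold change of 0.40 (adjusted p = 0.223) that was 0.19 without brain 2. An antisense row lies wholly within the exons of Chsy1 over 2037 bases and had a log2 fold change of 0.52 (adjusted p = 0.0932), so that the reads of the pair may not be separable. Csgalnact1 was lower in ULAs on average, and the other 5 members were higher. These differences offset each other, and the summed level of the group was nearly equal, 124.1 ± 0.872 RPKM in ULAs and 123.8 ± 0.913 RPKM in DLAs.

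**Figure D4:**
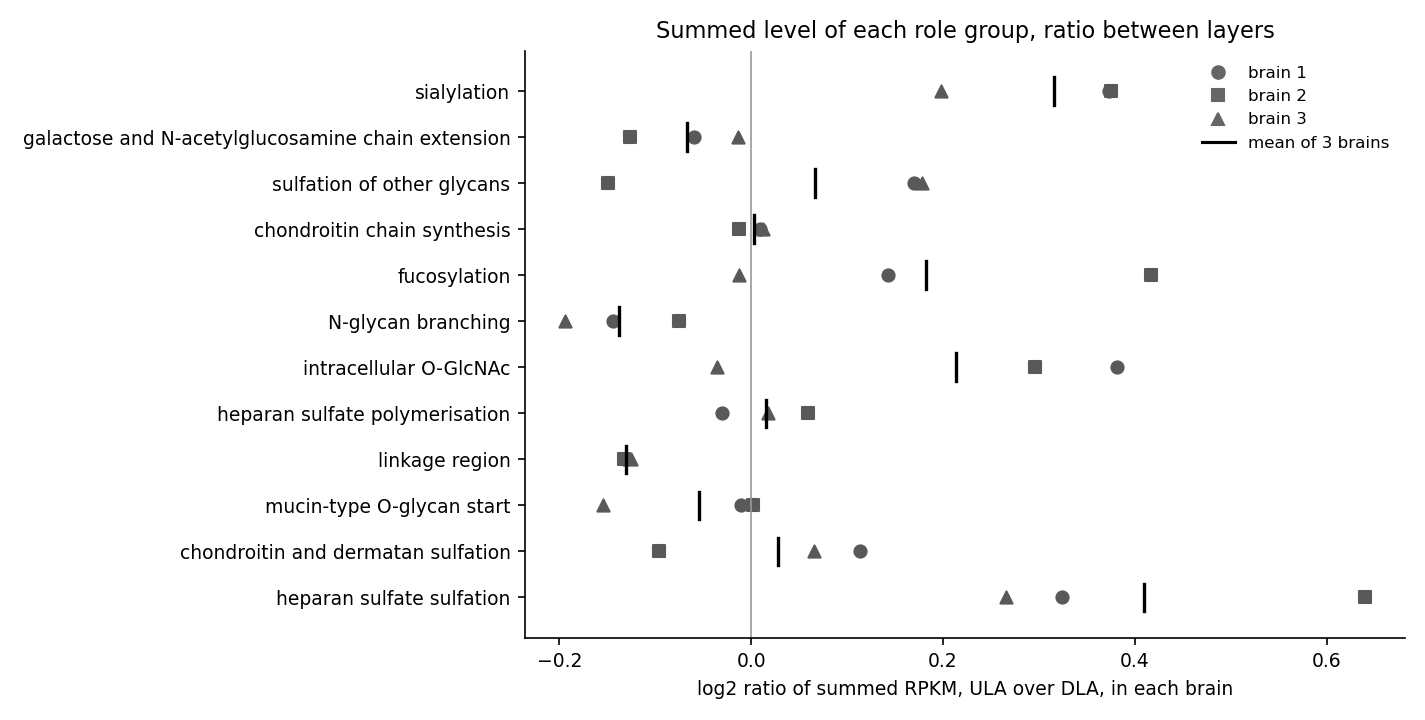
Log2 ratio (ULA over DLA) of the summed RPKM of each role group in each of 3 brains, with 1 symbol per brain and a bar at their mean. Heparan sulfate sulfation and sialylation lie above 0 in all 3 brains, and the linkage region, N-glycan branching and the galactose and N-acetylglucosamine group lie below 0 in all 3. Sums follow the abundant members. Of the tested members, 5 of 5 in heparan sulfate sulfation and 6 of 12 in sialylation had a log2 fold change above 0. In the groups below 0, 1 of 4, 3 of 6 and 7 of 11 did, in the order named.

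Sialylation had the highest summed level, with 20 members that held 26.2% of the summed RPKM of all members, and St6galnac5 alone held 48.2% of the sialylation sum. St6galnac5 adds sialic acid to N-acetylgalactosamine in gangliosides of the alpha series. It was at 274.92, 258.66 and 192.65 RPKM in ULAs and 181.11, 169.17 and 140.76 RPKM in DLAs. The lowest ULA value, in brain 3, was close above the highest DLA value, in brain 1, and within brains the ratio of ULAs to DLAs was 1.47 ± 0.09 (mean ± SD, n = 3). St6galnac5 passed, with a log2 fold change of 0.55 (SE 0.09, limma adjusted p = 0.0163), on 6648 to 13437 reads per library. Without brain 1 the change was 0.53 and did not pass (adjusted p = 0.170). The gene lies at chr3:152483674-152645171 on the minus strand (mm9) in 5 exons.

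The other tested sialyltransferases did not pass, and the median of the 12 tested was 0.04. St3gal4, which caps galactose on glycoproteins and glycolipids, was the next most abundant, at 119.4 ± 9.57 RPKM in ULAs and 112.2 ± 13.5 RPKM in DLAs, with a log2 fold change of 0.09 (adjusted p = 0.666). St6galnac6, which acts on gangliosides as St6galnac5 does, was at 7.75, 6.30 and 7.0 RPKM in ULAs and 6.06, 5.86 and 3.55 RPKM in DLAs. Its groups did not overlap, and its log2 fold change was 0.40 (adjusted p = 0.246), or 0.20 without brain 3. It shares 128 exon bases with its neighbour St6galnac4, which gave -0.02. St3gal6, at 10.52, 13.15 and 8.09 RPKM in ULAs and 7.22, 9.96 and 7.16 RPKM in DLAs, had overlapping groups and a log2 fold change of 0.34 (adjusted p = 0.224).

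St3gal5 and St8sia1 act early in the ganglioside series, and the change of each was smaller than its SE (0.16 and 0.15). St3gal5, which makes the first ganglioside GM3, gave a log2 fold change of -0.10 (adjusted p = 0.806), and St8sia1, which adds the next sialic acid, gave -0.13 (adjusted p = 0.702). St3gal5 was higher in ULAs in brain 1 only, and St8sia1 was higher in DLAs in all 3 brains. The groups overlapped for both. The polysialic acid synthases St8sia2 and St8sia4 were at most 0.01 RPKM in every library, so that both lay near or at 0 in these cells. The 20 sialylation members summed to 513, 472 and 418 RPKM in ULAs and 396, 364 and 364 RPKM in DLAs, with no overlap between the layers. St6galnac5 made up most of that gap, with 242.1 of a mean sum of 467.4 RPKM in ULAs and 163.7 of 374.6 RPKM in DLAs. Of the 12 tested members, 6 had a log2 fold change above 0.

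B3galt2, which transfers galactose in a beta-1,3 linkage to N-acetylglucosamine, was the member with the largest change in either direction among those tested. It was at 3.98, 3.51 and 6.09 RPKM in ULAs and 11.98, 10 and 13.35 RPKM in DLAs. Every DLA value was above every ULA value, and the ratio of DLAs to ULAs was 2.68 ± 0.43 (mean ± SD, n = 3 brains). B3galt2 passed, with a log2 fold change of -1.23 (SE 0.13, limma adjusted p = 0.00187), on 412 to 1806 reads per library. Of the 11 tested members of the galactose and N-acetylglucosamine group, the other 10 did not pass and lay between -0.10 and 0.23. The most abundant of them, B3gnt1, was at 144.6 ± 4.24 RPKM in ULAs and 149.5 ± 10.8 RPKM in DLAs, with a log2 fold change of -0.05 (adjusted p = 0.851). This row, named B4gat1 in RefSeq, held 64.1% of the summed RPKM of the group. The sum therefore describes mostly the enzyme that primes the dystroglycan glycan.

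B3galt2 lies within another gene that was also higher in DLAs. It is found at chr1:145487827-145497067 on the plus strand (mm9), in 2 exons, wholly within an intron of 32535 bases of Cdc73, a component of the PAF1 transcription complex that is encoded on the opposite strand. No exon base is shared, and the nearest Cdc73 exons are 5607 and 17687 bases away. Cdc73 itself was at 15.28, 12.33 and 20.03 RPKM in ULAs and 34.91, 23.97 and 38.75 RPKM in DLAs, in the same order of libraries within each layer as B3galt2. It also passed, with a log2 fold change of -0.99 (SE 0.11, limma adjusted p = 0.00255). The other 6 tested rows within 1000000 bases of B3galt2 did not pass, among them Glrx2 at -0.07, Uchl5 at -0.03, Trove2 at 0.21 and Rgs2 at -0.29. The library kit is not stated to keep strand, and the part of intronic RNA of Cdc73 in the B3galt2 value was not tested.

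Oligodendrocyte markers were also higher in DLAs, and their summed level was 89.6, 87.0 and 177 RPKM in ULAs and 176, 201 and 274 RPKM in DLAs of brains 1, 2 and 3. Blood genes were higher in DLAs as well, at 15.4, 16 and 76.7 RPKM, and the part of either in the B3galt2 result was not tested.

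**Figure D5:**
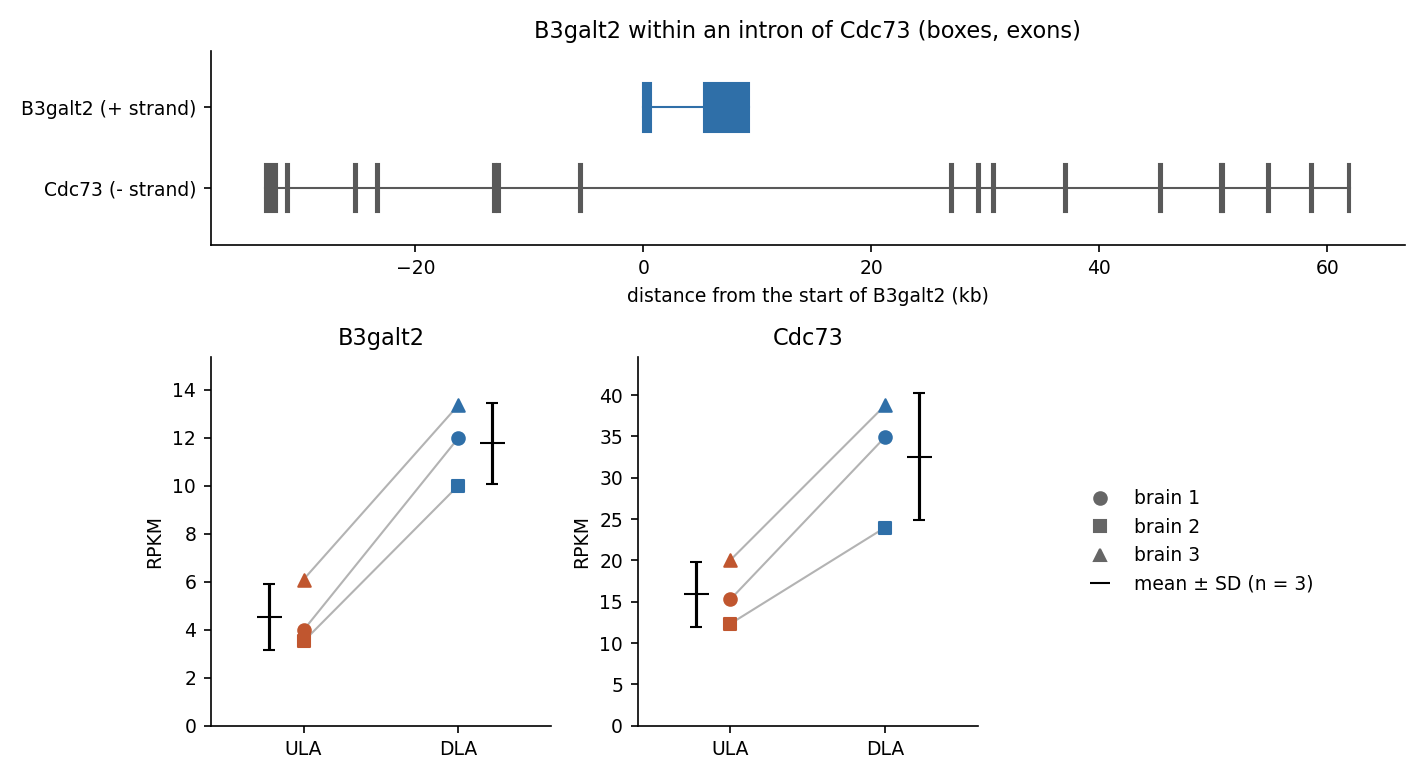
Top, exons (boxes) of B3galt2 and Cdc73 by distance in kb from the start of B3galt2. Below, RPKM of both genes in ULAs and DLAs, with 1 symbol per brain and the mean ± SD of 3 libraries. B3galt2 falls in a gap between Cdc73 exons, and both genes are higher in DLAs in all 3 brains.

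N-glycan branching, carried out by the Mgat enzymes, had 6 of 8 members tested and none past the threshold. Mgat4c, of the family that adds a branch to the mannose core, had the lowest adjusted p among all members that did not pass. It was at 17.31, 30.35 and 16.42 RPKM in ULAs and 25.18, 31.58 and 28.30 RPKM in DLAs. The level was higher in DLAs in each brain but the groups overlapped, with a log2 fold change of -0.44 (adjusted p = 0.159). Without brain 2, in which the libraries were nearly equal, it was -0.63 and passed (adjusted p = 0.0327). Its relative Mgat4b gave -0.36 (adjusted p = 0.275), and the most abundant enzyme of the group, Mgat2, was at 26.9 ± 2.82 RPKM in ULAs and 28.4 ± 1.37 RPKM in DLAs. The summed level was 86.1, 91.3 and 86.6 RPKM in ULAs and 95.1, 96.2 and 99.0 RPKM in DLAs, with every DLA value above every ULA value. Mgat4c made up much of that gap, with 21.4 of a mean sum of 88.0 RPKM in ULAs and 28.4 of 96.8 RPKM in DLAs. The median log2 fold change of the group was -0.0092, with 3 of the 6 tested members above 0.

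Fucosylation had 4 of 8 members tested, with a median of 0.07. Over the alternatives that tested the same 4, this median ranged from -0.01 with the length correction to 0.14 without brain 1. Fut8, which adds the core fucose of N-glycans, held 73.8% of the sum of this group. It was at 88.88, 90.16 and 83.81 RPKM in ULAs and 73.75, 67.11 and 80.83 RPKM in DLAs. The values did not overlap, but the change was small, 0.25 on the log2 scale (adjusted p = 0.283). Fut9, which makes the Lewis X epitope of neural cells, was at 21.6 ± 3.49 RPKM in ULAs and 22.5 ± 2.97 RPKM in DLAs.

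Mucin-type O-glycans are started by the Galnt enzymes, of which 8 of 18 were tested, with a median of -0.02 and none past the threshold. The median was -0.10 without brain 1 and 0.03 without brain 3. Galnt11 was the most abundant at 19.4 ± 2.98 RPKM in ULAs and 20.9 ± 1.92 RPKM in DLAs, with a log2 fold change of -0.11 (adjusted p = 0.671). With 1 brain left out, that change ranged from -0.14 to -0.04. The group ranged from -0.23 to 0.29. Ogt, the enzyme that attaches single N-acetylglucosamine residues to nuclear and cytoplasmic proteins, was at 89.85, 90.05 and 87.25 RPKM in ULAs and 68.99, 73.32 and 89.41 RPKM in DLAs. Brain 3 showed no higher level in ULAs, and the log2 fold change was 0.21 (adjusted p = 0.367).

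Sulfation of other glycans had 5 of 7 members tested, a median of 0.11 and none past the threshold. Over the alternatives that tested the same 5, the median ranged from -0.0019 with the length correction to 0.15 under quantile normalization. Chst1, which sulfates galactose in keratan sulfate, was at 130.9 ± 18 RPKM in ULAs and 120.5 ± 14.1 RPKM in DLAs, with a log2 fold change of 0.12 (adjusted p = 0.674). Chst10, which makes the HNK-1 epitope by sulfating glucuronic acid, was at 62.9 ± 4.50 RPKM in ULAs and 64.7 ± 7.85 RPKM in DLAs, with a log2 fold change of -0.04 (adjusted p = 0.888). The hyaluronan synthases were barely measured. Has1 was at 0.34, 1.39 and 0.48 RPKM in ULAs and 0.67, 0.94 and 0.06 RPKM in DLAs, and Has2 and Has3 did not exceed 0.06 RPKM.

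A further 98 genes of glycan metabolism, listed by function and not among the 120, served to place the members in their pathway. None of the 23 tested genes of sugar-nucleotide, sulfate and sialic acid supply passed, nor did any of the 15 tested glycan-removing enzymes or the 13 tested proteoglycan core proteins. Of the 19 other glycan-building enzymes tested, 1 passed in each direction. Eogt, which attaches N-acetylglucosamine to EGF-like repeats outside the cell, was at 141.75, 118.67 and 117.02 RPKM in ULAs and 43.27, 36.94 and 45.21 RPKM in DLAs, with a log2 fold change of 1.57 (limma adjusted p = 9.92e-05). Ugt8a, which makes the galactosylceramide of myelin, was at 0.26, 0.63 and 2.33 RPKM in ULAs and 1.6, 1.63 and 4.88 RPKM in DLAs, with a log2 fold change of -0.85 (limma adjusted p = 0.0279). The oligodendrocyte markers moved in the same direction as Ugt8a. In all, 2 of the 70 genes tested passed, where 1.63% of all 13999 rows tested did. At that share few calls would be expected in lists of this size. The median log2 fold change of the 70 genes was 0.04, against 0.05 for the members and -0.03 for all rows.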

How the data were processed

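Total RNA of sorted cells had been reverse-transcribed (SMART-Seq v4), made into Nextera XT libraries and sequenced as single-end reads of 36 bases on an Illumina HiSeq instrument. The authors deposited RPKM values, truncated to 2 decimals, with the length and mm9 coordinates of each row. The submitters' processing notes name mm9, bcl2fastq 1.8.4 and CASAVA 1.8.2. The counting program is not given in the sources used here. No column of the authors' own comparisons was used, and 0 columns of other samples were present.

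Sequencing depth was read from rows of up to 500 bases, in which over 99.9% of low values were those that a whole number of reads gives once reads per M and RPKM are each truncated to 2 decimals, with no further tolerance. At the next best depth at most 80.3% were. A multiple of a depth gives whole numbers too, so that this fit cannot exclude it. All 13999 rows that averaged 1 RPKM or more over the 6 libraries were tested on log2(RPKM + 1), a scale that understates the change of low genes, with limma 3.58.1 in R 4.3.3 (lmFit, eBayes with trend), brain and layer as terms, 2-sided, with Benjamini-Hochberg adjustment over all these rows. An adjusted p under 0.05 passed. Same-numbered libraries were taken as 1 brain, since the study compared 3 brains pairwise and their deviations from the layer means were correlated (r over rows of 0.42, 0.33 and 0.34, against -0.20 to -0.16 for other pairs). An exact permutation test cannot go below 0.25 with 3 pairs, and limma was the test used for each gene. The fit was tested on simulated data with known changes, of which those of 0.5 on the log2 scale were not recovered and those of 2 mostly were.

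Exon bases were shared with another row by 20 members, 15 of them tested, and strand is not stated, so that reads of such pairs may not be separable. The members, role groups and gene lists were chosen with earlier results of these data known, and no list was tested as a set. The 28 members named by rule are those that passed, the 12 most abundant, the 5 most positive and 5 most negative changes that did not pass, and the most abundant of each role group. Others are named to describe their pathway. Alternatives changed the block, the pseudocount (0.1), the filter (none, or 5 RPKM), the scaling, the variance trend, a loess correction for length (span 0.5), and left out each brain. Promoters are from RefSeq (GRCm38.p6), and no coordinate was carried between builds. Figures were drawn with matplotlib 3.10.9 in Python 3.11.15.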

Additional observations from a re-analysis of the deposited data

How the results depend on the processing

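The block for brain decided most calls. With no replicate block, that is without the pairing of libraries by brain, 0 members passed as higher in ULAs in place of 3, while 1 passed as higher in DLAs as before. At an unadjusted p under 0.05 in that fit, 6 members were higher in ULAs and 1 was higher in DLAs. With no filter on low values, limma called 0 members in either direction and 0 of 27963 rows (10 and 3 members at an unadjusted p under 0.05), and the cause was not tested. Leaving out 1 brain at a time gave 1 to 3 members higher in ULAs and 1 to 2 higher in DLAs. Chst7 alone remained on the ULA side without brain 1, and Mgat4c was added without brain 2. The median log2 fold change of the tested members was 0.088 under quantile normalization and 0.01 with the length correction, against 0.05, and 0.04 to 0.06 with a brain left out. B3galt2 passed in every alternative but the one with no filter, Chst7 in all but that and the one without the block. St6galnac5 also lost its call without the variance trend (adjusted p = 0.0832). Hs3st1 was not tested at a mean of at least 5 RPKM.

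Members near 0 changed sign. Under quantile normalization the log2 fold change was 0.068 for B3gnt1, 0.061 for Chst10, 0.099 for Ext2 and 0.041 for B4galt7. It was 0.0077 for Ext2 with median centring, and with the length correction it was -0.0043 for Chpf and 0.0050 for B4galt7. With a brain left out, Chst10 ranged from -0.10 to 0.0079, Ext2 from -0.071 to 0.050, Chpf from -0.17 to 0.26, B4galt7 from -0.17 to 0.038 and Mgat2 from -0.15 to 0.0015. None of these passed in any fit. Among other named members that did not pass, leaving out 1 brain moved the log2 fold change over -0.57 to -0.15 for Xylt1, -0.50 to -0.20 for Mgat4b, 0.13 to 0.33 for Ogt, 0.16 to 0.34 for Fut8 and 0.02 to 0.29 for Chst1. With 3 brains per layer, a p that misses the threshold does not show that a member was at the same level in ULAs and DLAs.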
